A study of Mus musculus with 16 samples.

Results

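The miR-30 family was described across 16 small RNA libraries of C2C12, an established line of mouse muscle precursors (myoblasts) that form multinucleate myotubes in low serum. The members were 10 mature strands, found by their names in the per-library miRNA tables after hairpin copy numbers were dropped: the 5 guide strands miR-30a-5p, miR-30b-5p, miR-30c-5p, miR-30d-5p and miR-30e-5p, and the 5 passenger strands miR-30a-3p, miR-30b-3p, miR-30c-2-3p, miR-30d-3p and miR-30e-3p. They are 10 of 2274 miRNA names (2510 before copies of a name were merged), and all 10 passed the filter on low counts that left 807 names for testing. miR-30c-1-3p, the other passenger strand of miR-30c, is given beside them where it bears on a value, without being counted.

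The study compared control C2C12 cells, labelled wild-type, with a triple knockout (tKO) of the genes for miR-1a-1, miR-1a-2 and miR-206, the miRNAs most typical of muscle. Each genotype was sampled in growth medium with 20% fetal bovine serum (GM) and after 3 days in differentiation medium with 2% horse serum (DM3). The labels' protocol calls the cultures PAX7 NEG for both genotypes. A group held 4 libraries, from 2 control populations or 2 tKO clones (here line 1 and line 2) with 2 replicates each, so a genotype rests on 2 lines. The titles number the replicates BR1 and BR2 without spelling this out, and the labels used here do not say further how far they were separate cultures. The p-values measure the spread between these libraries.

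The libraries held 112792 to 6543570 reads listed under a miRNA, of which 3.18% to 6.73% were miR-30 reads (3590 to 328950 per library). The deletion was visible in every tKO library: miR-206-3p stood at 883 to 1790 TMM CPM (reads scaled to library size by the TMM method) in control GM against 1.03 to 18.2 in tKO GM, and after differentiation at 14100 to 60600 in control against 0.817 to 53.6 in tKO. The 4 skeletal muscle markers, which include the deleted miRNAs with miR-133a-3p and miR-133b-3p, were all listed, and their sum after differentiation was 16300 to 62900 TMM CPM for control and 84.1 to 919 for tKO. The summed blood markers reached 3.85 TMM CPM at most and the neuron marker miR-124-3p was not listed, while miR-143-3p and miR-145a-5p, typical of smooth muscle and fibroblasts, summed to 14000 to 68200 TMM CPM over all groups. Some other markers were present at low levels: the liver marker miR-122-5p was at 4.12 to 33.4 TMM CPM in GM and 0.0 to 2.89 in DM3 for control (22.7 to 62.8 and 0.0 to 7.62 for tKO), the 2 epithelial markers summed to 6.18 to 11.3 and 0.0 to 3.88 (2.58 to 13.8 and 0.0 to 10.8), and the 2 endothelial markers to 15.9 to 35.4 and 4.62 to 16.9 (3.10 to 13.2 and 3.85 to 17.2). Their part in the results was not tested. Of the libraries, 1 stood apart, tKO DM3 line 1 replicate 1: it had the fewest reads, 18.9% of them under 18 nt (1.88% to 12.8% in the other libraries) and 35.4% listed under miR-6240 or miR-6236 (0.555% to 17.1%). Values without it are given beside the main results it enters.

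The miR-30 family is defined by a seed shared by its guide strands, the bases at positions 2 to 8 that pair with target mRNAs. A miRNA is cut as a duplex from a hairpin, and the strand kept in Argonaute is called the guide, while the passenger is mostly degraded and is usually seen at lower levels. miR-30 is abundant in many tissues, muscle among them, and is known for targets in autophagy, apoptosis, epithelial identity and fibrosis. The hairpins lie in 3 pairs. In GRCm38 with the GENCODE M21 annotation, Mir30a (chr1:23272269-23272339, plus strand) lies in no other gene, and Mir30c-2 (chr1:23291701-23291784, plus strand), 19361 bases away, overlaps an exon of the lincRNA gene Gm27028. Mir30b (chr15:68337415-68337510, minus strand) lies in no other gene, and Mir30d (chr15:68341208-68341289, minus strand), 3697 bases away, overlaps an exon of the lincRNA gene Gm20732. Mir30c-1 (chr4:120769534-120769622) and Mir30e (chr4:120772606-120772697), 2983 bases apart on the minus strand, lie in introns of Nfyc, a protein-coding gene for a subunit of the transcription factor NF-Y, and Mir30e overlaps the antisense gene Mir30f.

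The mature sequences below are from RefSeq (GRCm38.p6, 5′ to 3′), which matched 6 of the 10 members, with the seed in capitals. They are shown because the results turn on how alike the strands are and on where a strand starts. The guides of Mir30a, of both miR-30c hairpins and of Mir30e carry the seed GUAAACA.
miR-30a-5p: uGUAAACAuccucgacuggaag
miR-30c-5p: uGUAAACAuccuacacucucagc
miR-30e-5p: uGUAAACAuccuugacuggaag
The passengers with a sequence here have 2 seeds, UUUCAGU for miR-30a-3p and miR-30e-3p and UGGGAGA for the passengers of both miR-30c hairpins.
miR-30a-3p: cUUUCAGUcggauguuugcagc
miR-30e-3p: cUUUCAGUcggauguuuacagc
miR-30c-2-3p: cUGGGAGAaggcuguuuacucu
miR-30c-1-3p: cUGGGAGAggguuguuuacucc
Counted from the 5′ end and written in DNA letters, miR-30a-5p and miR-30e-5p differ at 1 of 22 bases (C13T), and miR-30a-3p and miR-30e-3p also at 1 of 22 (G18A).

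Which miR-30 name a read carries in the deposited tables did not always match the hairpin its sequence fits. The tables allow mismatches, and many reads identical to the Mir30a hairpin were listed under miR-30d-5p with a mismatch. The largest such entry, with 206734 reads over the 16 libraries, is printed in DNA letters with the mismatched base, position 12 from the 5′ end, in capitals. It is entered as the change C12T from miR-30d-5p, and it holds all 22 bases of miR-30a-5p printed above, followed by the next bases of the Mir30a hairpin.
listed as miR-30d-5p: tgtaaacatccTcgactggaagct
Its 23-nt form, with the same change, added 113861 reads. In all, 28.7% of the 1270926 reads listed as miR-30d-5p fitted Mir30a only, and these 365041 reads were 88.6% of all reads that fitted miR-30a-5p. Placing each read on the hairpin it matches raised miR-30a-5p from 73005 to 412034 reads and lowered miR-30d-5p from 1270926 to 849478. On the passenger side, 73.0% of the 2425 reads listed as miR-30d-3p fitted miR-30a-3p, which left 609 reads for miR-30d-3p. For miR-30e-3p, 10.9% of the listed reads fitted miR-30a-3p. The names of miR-30b-5p, miR-30c-5p, miR-30e-5p, miR-30a-3p, miR-30b-3p and miR-30c-2-3p were little affected, with 92.8% to 94.8% of their listed reads fitting their own arm. Of 121 sequences with at least 100 reads on a miR-30 hairpin, 10 were listed under different miR-30 names in different libraries, and these held 3.89% of the reads.

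The size of this shift differed between libraries. The share of miR-30d-5p reads that fitted Mir30a only was 16.8% to 28.4% for control and 22.9% to 34.97% for tKO libraries in GM. In DM3 it was 19.9% to 27.7% for control and 31.4% to 37.9% for tKO, and these groups did not overlap. Below, tests were run on the names as listed, which is how the comparison was set up, and values after placing on hairpins, an alternative added after seeing the data, are given where they differ.

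**Figure D1:**
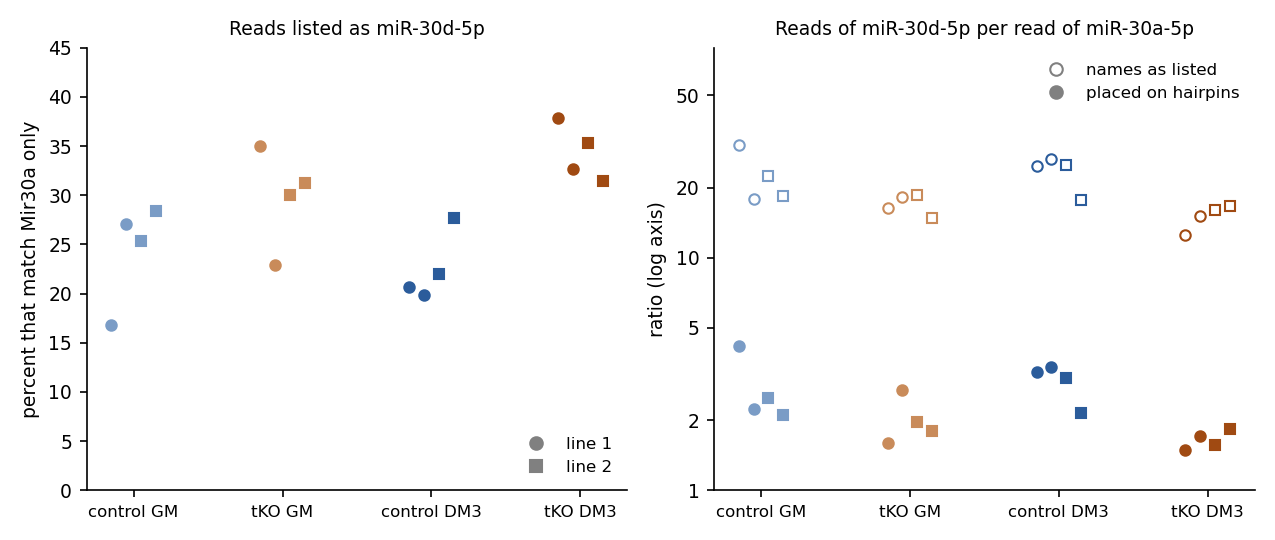
Left, the percent of reads listed as miR-30d-5p that match the Mir30a hairpin only, in each library by group. Right, reads of miR-30d-5p per read of miR-30a-5p (log axis), with names as listed (open) and after reads were placed on hairpins (filled); circles are line 1, squares line 2. As listed, the ratio was 12.5 to 30.6, and on the hairpins it was 1.48 to 4.17.

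miR-30d-5p was the most abundant guide under either assignment, and the order of the next guides depended on the assignment. As listed, miR-30d-5p averaged 33860 TMM CPM over the 16 libraries (13800 to 42200), rank 8 of all names, followed by miR-30c-5p at 9540 (6085 to 13320), miR-30e-5p at 1857 (804.5 to 3444), miR-30a-5p at 1796 (1014 to 2851) and miR-30b-5p at 431 (243.8 to 590.5). On the hairpins miR-30d-5p averaged 23160 and miR-30a-5p rose to 10360 TMM CPM (5664 to 15110), next to miR-30c-5p at 8896 (5644 to 12420). The ranges of miR-30d-5p and miR-30a-5p overlapped in part and those of miR-30a-5p and miR-30c-5p almost wholly, whereas miR-30e-5p and miR-30b-5p lay below both without overlap. Within each library, miR-30d-5p had 1.48 to 4.17 reads per read of miR-30a-5p on the hairpins. A read is counted once whatever its length, so no length correction enters these levels, which compare reads and not molecules.

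As shares of guide reads on the hairpins, miR-30d-5p held 38.1% to 63.9% (median 51.1%), miR-30a-5p 15.3% to 28.0% (24.2%) and miR-30c-5p 13.8% to 27.2% (20.2%). miR-30e-5p held 1.85% to 6.89% and miR-30b-5p 0.548% to 2.13%. Of the neighbouring hairpins, Mir30d thus gave a far larger share than Mir30b. The other pairs cannot be compared in this way, since miR-30c-5p is the same from Mir30c-1, beside Mir30e, and from Mir30c-2, beside Mir30a.

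Among passengers, miR-30a-3p was the highest at 1288 TMM CPM on the hairpins (390.6 to 2262), followed by miR-30e-3p at 336 (91.2 to 592), miR-30c-2-3p at 145 (17.1 to 303), miR-30b-3p at 70.1 (7.71 to 148) and miR-30d-3p at 12.99 (0.0 to 24.7). The ranges of neighbours in this order overlapped. miR-30d-3p had 0 reads in the smallest library, where 3 reads, the upper limit a count of 0 allows, would be 26.6 CPM. Thus Mir30d, the hairpin with the most abundant guide, gave the fewest reads of the 5 passengers.

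**Figure D2:**
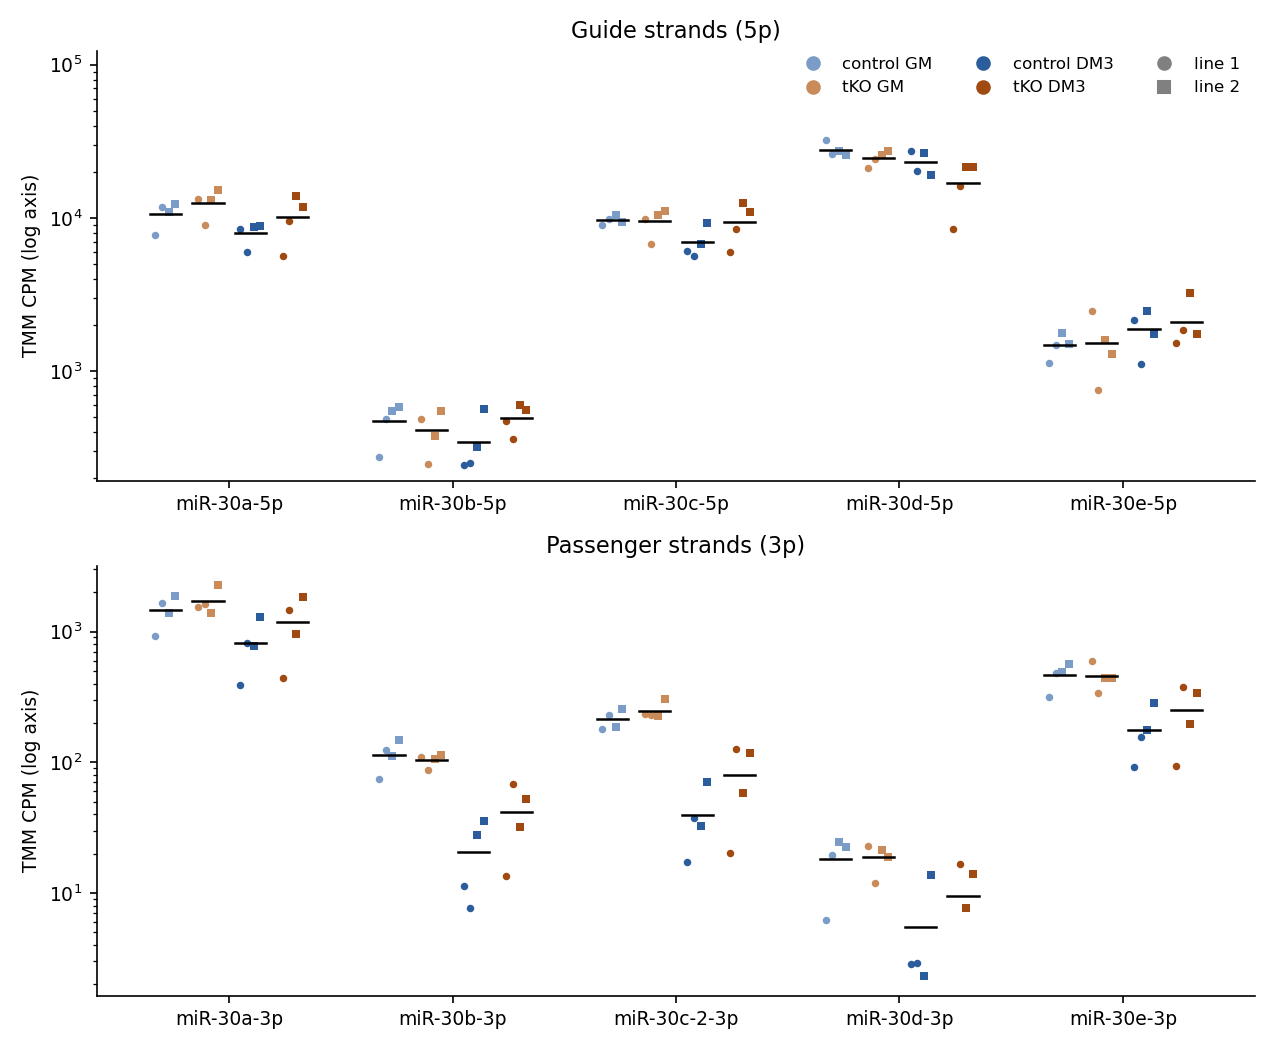
TMM CPM (log axis) of the guide strands (top) and passenger strands (bottom) in each library, with reads placed on hairpins; black bars are group means of 4 libraries, circles line 1 and squares line 2. The library of tKO DM3 with 0 reads of miR-30d-3p cannot be drawn on the log axis. Guide levels overlap between genotypes in the same medium and between media in the same genotype. For miR-30d-5p, the tKO DM3 libraries lie below all control GM libraries. The DM3 values of miR-30b-3p and miR-30c-2-3p lie below all GM values of the same genotype.

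The first question was whether loss of miR-206 and miR-1a changed the family in proliferating cells. None of the 10 members was called between tKO and control in GM by edgeR (quasi-likelihood test, p-values adjusted by Benjamini-Hochberg over all 807 names), against 1.12% of all names, and 0 members had an unadjusted p under 0.05 (65 of 807 names did). Log2 fold changes (tKO against control) ran from -0.22 for miR-30b-5p (SE 0.36) to 0.28 for miR-30a-5p (SE 0.28), and the smallest adjusted p was 0.937. The median member stood at 0.00 and the median of all names at 0.11. The groups overlapped for every member.

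In DM3, again none of the 10 members was called between tKO and control by edgeR, with 0.867% of all names called. At unadjusted p under 0.05 there were 2 members and 90 of 807 names. Log2 fold changes were positive for 9 of 10 members, with a median of 0.47 against 0.09 for all names. The largest were passengers. miR-30b-3p, the passenger of miR-30b, was at 14.3, 10.6, 30.1 and 37.8 TMM CPM in control DM3 (line 1 replicates 1 and 2, then line 2 replicates 1 and 2) and at 13.4, 75.1, 38.5 and 56.6 in tKO DM3. The log2 difference was 1.05 (SE 0.47; edgeR adjusted p 0.395). miR-30c-2-3p was at 17.1, 41.4, 34.7 and 76.6 in control DM3 and 20.1, 135.6, 59.0 and 123.8 in tKO DM3, a log2 difference of 1.01 (SE 0.47; edgeR adjusted p 0.423). The control DM3 values rested on 5, 11, 13 and 107 reads of miR-30b-3p and 6, 43, 15 and 217 of miR-30c-2-3p. Those of tKO DM3 rested on 2, 276, 30 and 241 reads and on 3, 498, 46 and 527. For both strands the groups overlapped, and the lowest tKO value came from the library that stood apart. Without that library the log2 differences were 1.33 and 1.34, with edgeR adjusted p 0.0731 and 0.0592.

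The guides in DM3 had log2 differences between tKO and control from -0.23 for miR-30d-5p (SE 0.27) to 0.50 for miR-30b-5p (SE 0.37), none of them called. Without the library that stood apart they ran from 0.07 for miR-30d-5p (edgeR adjusted p 0.869) to 0.69 for miR-30c-5p (adjusted p 0.144), still uncalled. Placed on the hairpins, miR-30d-5p was at -0.47 (SE 0.28; edgeR adjusted p 0.494) and miR-30a-5p at 0.34 (SE 0.29; adjusted p 0.646), and without that library at -0.15 (adjusted p 0.722) and 0.62 (adjusted p 0.184). The test of whether differentiation differed between genotypes called none of the 10 members and 0.0% of all names with edgeR, where 37 of 807 names and 0 members had an unadjusted p under 0.05. Interaction estimates ran from -0.16 for miR-30d-5p (SE 0.37) to 1.17 for miR-30b-3p (SE 0.64; edgeR adjusted p 0.937).

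The ratio of miR-30d-5p to miR-30a-5p is given as a description, since it was chosen after its values were seen. On the hairpins, control DM3 libraries had 3.22, 3.40, 3.03 and 2.16 reads of miR-30d-5p per read of miR-30a-5p, and tKO DM3 libraries had 1.48, 1.71, 1.56 and 1.83. Every tKO library lay below every control library, with or without the library that stood apart. The mean log2 ratio was 0.72 ± 0.14 in tKO and 1.54 ± 0.30 in control (SD, n = 4 each), a difference of -0.83. In GM the ratios overlapped (1.59 to 2.71 in tKO, 2.10 to 4.17 in control; difference in mean log2 ratio -0.42). DM3 against GM differed by 0.14 in control and -0.27 in tKO.

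The next comparison asked how the family moved as myoblasts became myotubes. In control cells, 2 of 10 members were called lower in DM3 by edgeR and none higher. Of all names, 27.6% were called in either direction and 11.8% lower. Both called members were passengers, miR-30b-3p and miR-30c-2-3p, and their means fell from 121.5 ± 33.6 to 23.2 ± 12.9 and from 225.2 ± 37.1 to 42.5 ± 24.9 TMM CPM (SD, n = 4). miR-30b-3p went from 78.2, 131.3, 117.6 and 159.1 TMM CPM in control GM to 14.3, 10.6, 30.1 and 37.8 in control DM3, the libraries in the order given above. The log2 change was -2.36 (SE 0.47; edgeR adjusted p 0.00103), and every DM3 library lay below every GM library. miR-30c-2-3p went from 193.5, 242.4, 195.7 and 269.3 to 17.1, 41.4, 34.7 and 76.6 TMM CPM, again without overlap. The log2 change was -2.36 as well (SE 0.49; edgeR adjusted p 0.00129). The control DM3 values of both strands rested on the few reads given above. In bulk libraries, fewer cells of a type and less of a strand per cell cannot be told apart.

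The remaining passengers had lower means in DM3. miR-30e-3p, the passenger of the Nfyc intron hairpin, was at 433.4, 509.9, 554.1 and 649.3 TMM CPM in control GM and 226.6, 244.3, 284.4 and 387.3 in control DM3, with no overlap. The log2 change was -0.90 (SE 0.35; edgeR adjusted p 0.0632). After placing on hairpins it was -1.37 (SE 0.42; edgeR adjusted p 0.0196), a call, and 3 of 10 members were then lower, with 11.9% of all names called lower. miR-30a-3p, whose start is described below, was at 884.3, 1682, 1459 and 1853 in control GM and 282.2, 766.2, 732.9 and 1227 in control DM3, which overlap in range. The log2 change was -0.96 (SE 0.44; edgeR adjusted p 0.112). Leaving out tKO DM3 line 1 replicate 1, a library outside this comparison but in the fit, gave calls for both (-0.96 and -1.01, edgeR adjusted p 0.0303 and 0.0495). Without control DM3 line 2 replicate 2 both were also called (0.0422 and 0.0419).

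GM and DM3 libraries of a genotype come from the same populations or clones. With line and replicate number as blocks, the edgeR calls in control numbered 4: miR-30a-3p (-1.09, adjusted p 0.00657) and miR-30e-3p (-0.92, adjusted p 0.0325) were added. miR-30d-3p was at -1.25 (SE 0.92; edgeR adjusted p 0.336) as listed, with most of those reads fitting miR-30a-3p, and at -1.46 (SE 0.58; adjusted p 0.0684) on the hairpins. Without control DM3 line 2 replicate 2, its listed reads were called (-2.85, adjusted p 0.0435). Its reads on the hairpins were called without the library that stood apart (-1.51, edgeR adjusted p 0.0351). In control DM3 miR-30d-3p had 0, 18, 1 and 184 reads as listed and 1, 3, 1 and 39 on the hairpins. miR-30c-1-3p, the passenger of the miR-30c hairpin next to Mir30e, was at -1.34 (SE 0.50; adjusted p 0.0544) as listed and at -1.39 (SE 0.51; adjusted p 0.0488), a call, on the hairpins.

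No guide was called in control DM3 against GM. The log2 fold changes were -0.49 for miR-30c-5p (SE 0.27), -0.48 for miR-30b-5p (SE 0.37), -0.41 for miR-30a-5p (SE 0.29), -0.30 for miR-30d-5p (SE 0.27) and 0.34 for miR-30e-5p (SE 0.36), with edgeR adjusted p from 0.193 to 0.523. As listed, miR-30d-5p was at 38310 to 41170 TMM CPM in control GM and 26980 to 36440 in control DM3, without overlap. The other guides overlapped. Scaling to total counts moved the median of all names by 0.38 in this comparison and turned miR-30a-5p to 0.01 and miR-30d-5p to 0.12, so a direction for these guides rests on the scaling. The summed guides stood at 52930 to 54420 TMM CPM in control GM and 35540 to 47290 in control DM3, but as a share of all reads at 4.29% to 5.08% and 3.98% to 6.65%, which overlap. In tKO the sums were 43560 to 58830 TMM CPM in GM and 23420 to 55010 in DM3, also overlapping. Over all 10 members the median log2 fold change was -0.70, against 0.02 for all names.

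In tKO cells, 1 of 10 members was called in DM3 against GM by edgeR, lower, while 19.7% of all names were called in either direction and 8.3% lower. miR-30c-2-3p went from 243.8, 247.4, 238.0 and 318.2 TMM CPM in tKO GM to 20.1, 135.6, 59.0 and 123.8 in tKO DM3. The groups did not overlap, with a log2 change of -1.56 (SE 0.47; edgeR adjusted p 0.0253). The call was kept without the library that stood apart (-1.26, edgeR adjusted p 0.0479), but not without tKO GM line 2 replicate 1 (adjusted p 0.0603), tKO GM line 2 replicate 2 (0.0779) or tKO DM3 line 2 replicate 1 (0.0751). It was also lost with only the groups compared in the fit (-1.53, adjusted p 0.0722), with replicate 2 alone (-1.12, 0.196) and with the replicates of a line summed (-1.21, 0.113).

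miR-30b-3p went from 118.8, 94.2, 114.4 and 122.4 to 13.4, 75.1, 38.5 and 56.6 TMM CPM in tKO, also without overlap. The log2 change was -1.20 (SE 0.45; edgeR adjusted p 0.0675), and with line and replicate blocks -1.27 (adjusted p 0.0232), which makes 2 calls. Without tKO DM3 line 1 replicate 2 it was also called (-1.49, adjusted p 0.0432), and without the library that stood apart it was at -0.96 (adjusted p 0.142). miR-30e-3p (-0.72, SE 0.35), miR-30a-3p (-0.55, SE 0.44) and miR-30d-3p (-0.35, SE 0.90) were not called in tKO, and without the library that stood apart they were at -0.51, -0.23 and -0.03. Guides ran from -0.46 for miR-30d-5p (SE 0.27) to 0.47 for miR-30e-5p (SE 0.36), none called. Without the library that stood apart they ran from -0.22 to 0.54, and miR-30c-5p changed sign, from -0.01 to 0.16. The median over members was -0.40, against 0.01 for all names. On the hairpins the same member was called and 7.81% of all names were called lower. These differentiation tests share no libraries between genotypes, but the difference between them was not called for any member.

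Other measures moved with differentiation in the same libraries. Reads under 18 nt made up 1.88% to 2.95% of control GM and 4.76% to 12.8% of control DM3, and reads listed under miR-6240 or miR-6236 made up 0.555% to 1.60% and 4.85% to 17.1%. In tKO the corresponding values were 2.00% to 6.50% and 2.96% to 18.9%, and 0.777% to 5.41% and 1.60% to 35.4%. Depth moved as well: the DM3 library was shallower than the GM library of the same line and replicate number in 4 of 4 control pairs and 3 of 4 tKO pairs. The part of these measures in the passenger values and in the ratios below was not tested.

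Since passenger and guide of a hairpin are read in the same library, their ratio needs no scaling between libraries. The ratio of passenger to guide fell in DM3 for 3 of 5 hairpins in both genotypes: miR-30b, miR-30c-2 and miR-30e. In control, limma with Benjamini-Hochberg adjustment over 186 hairpin names called 17.2% in either direction and 8.06% lower. In tKO it called 14.5% and 7.53%. The median log2 difference of the 5 hairpins was -1.61 in control and -1.32 in tKO, against 0.12 and -0.01 for all names.

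For miR-30b, listed passenger reads per 100 guide reads were 27.7, 26.8, 21 and 26.9 in control GM and 5.81, 4.35, 9.49 and 6.65 in control DM3. They were 24.8, 37.9, 30.03 and 22.4 in tKO GM and 2.94, 21.3, 6.67 and 10.2 in tKO DM3. No GM library overlapped a DM3 library of its genotype, and the log2 differences were -1.95 in control (SE 0.42; limma adjusted p 0.00418) and -1.72 in tKO (SE 0.42; adjusted p 0.0131). For miR-30c-2, whose passenger is set against the miR-30c-5p that 2 hairpins share, the values were 2.01, 2.29, 1.73 and 2.66 in control GM and 0.26, 0.681, 0.486 and 0.773 in control DM3. In tKO they went from 2.31, 3.44, 2.12 and 2.68 to 0.314, 1.496, 0.443 and 1.06. These groups did not overlap either, with log2 differences of -2.04 (SE 0.42; limma adjusted p 0.00279) and -1.86 (SE 0.42; adjusted p 0.00964). The DM3 ratios rested on the few passenger reads given above. In the library that stood apart these were 2 for miR-30b and 3 for miR-30c-2. Without that library, the tKO calls of both hairpins were kept, at -1.31 (adjusted p 0.036) for miR-30b and -1.54 (0.024) for miR-30c-2.

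For miR-30e the ratio went from 36.5, 32.2, 29.1 and 40.4 passenger reads per 100 guide reads to 9.94, 20.1, 10.9 and 20.9 in control. In tKO it went from 30.1, 51.9, 27.3 and 38.2 to 9.68, 24.97, 8.80 and 19.4. Within a genotype the DM3 values lay below the GM values without overlap. The log2 difference was -1.23 in control (SE 0.37; limma adjusted p 0.0274) and -1.32 in tKO (SE 0.37; adjusted p 0.0233). These 2 calls were the less stable ones: leaving out Control GM line 1 replicate 1, line 1 replicate 2 or line 2 replicate 2, or Control DM3 line 1 replicate 1 or line 2 replicate 1, raised the control p to between 0.0579 and 0.0925. In tKO, leaving out GM line 1 replicate 2 or line 2 replicate 2, or DM3 line 1 replicate 1 (the library that stood apart) or line 2 replicate 1, raised it to between 0.0615 and 0.082. These values are of the listed reads. On the hairpins the log2 difference was -1.76 in control (SE 0.46; limma adjusted p 0.0127) and -1.51 in tKO (SE 0.46; adjusted p 0.0363).

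The ratios of miR-30a and miR-30d were not called. On the hairpins, miR-30a had 11.98 to 15.2 passenger reads per 100 guide reads in control GM and 4.62 to 14.5 in control DM3, and 10.7 to 18.2 and 6.89 to 15.7 in tKO. The log2 differences were -0.50 (SE 0.37; limma adjusted p 0.369) and -0.34 (SE 0.37; adjusted p 0.571). miR-30d had 0.0192 to 0.0906 passenger reads per 100 guide reads in control GM and 0.00875 to 0.072 in control DM3. On the hairpins its log2 difference was -1.44 in control (SE 0.54; limma adjusted p 0.071) and -0.42 in tKO (SE 0.54; adjusted p 0.658). As listed, with most passenger reads fitting miR-30a-3p, it was -1.61 in control (SE 0.99; adjusted p 0.262) and -0.03 in tKO (adjusted p 0.994), and in control it was called on reads without a mismatch (-2.30, adjusted p 0.0121) and without control DM3 line 2 replicate 2 (-2.55, adjusted p 0.0491). Between genotypes no miR-30 ratio was called, in GM with 0.538% of hairpin names called by limma or in DM3 with 0.0% called. In GM 0 of the 5 ratios, and 3 of 186 names, had an unadjusted p under 0.05, and in DM3 0 and 25. On the hairpins, the miR-30d ratio in DM3 differed by 1.34 between tKO and control (SE 0.54; limma unadjusted p 0.0243, adjusted p 0.244). It rested on 1, 3, 1 and 39 reads of miR-30d-3p in control DM3 and 0, 61, 6 and 59 in tKO DM3.

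The ratios also moved with replicate number, a pattern noticed after seeing the data. On the hairpins, replicate 2 lay above replicate 1 of the same line and group in 8 of 8 pairs for miR-30a, miR-30c-2 and miR-30e, in 4 of 8 for miR-30b and in 5 of 8 for miR-30d. Replicate 2 was also the deeper library in 8 of 8 pairs, so depth and replicate number cannot be told apart here, and DM3 libraries were mostly shallower than GM libraries, as given above. Within replicate 1, the miR-30a ratio averaged 12.4 passenger reads per 100 guide reads in GM and 6.73 in DM3 for control, and 11.1 and 7.35 for tKO. Within replicate 2 it averaged 14.6 and 14.1 for control, and 16.6 and 15.6 for tKO. In both genotypes, GM and DM3 libraries did not overlap for miR-30a within replicate 1, whereas within replicate 2 they did. The mean ratios of miR-30b, miR-30c-2 and miR-30e were lower in DM3 within both replicate numbers and both genotypes. For miR-30e they went from 27.7 to 5.68 and from 35.01 to 15.2 in control, and from 25.8 to 6.11 and from 39.5 to 19.8 in tKO. On the listed reads, with replicate number as a block, the limma adjusted p of the miR-30e ratio was 0.00372 in control and 0.00371 in tKO, and that of miR-30a 0.138 and 0.453.

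**Figure D3:**
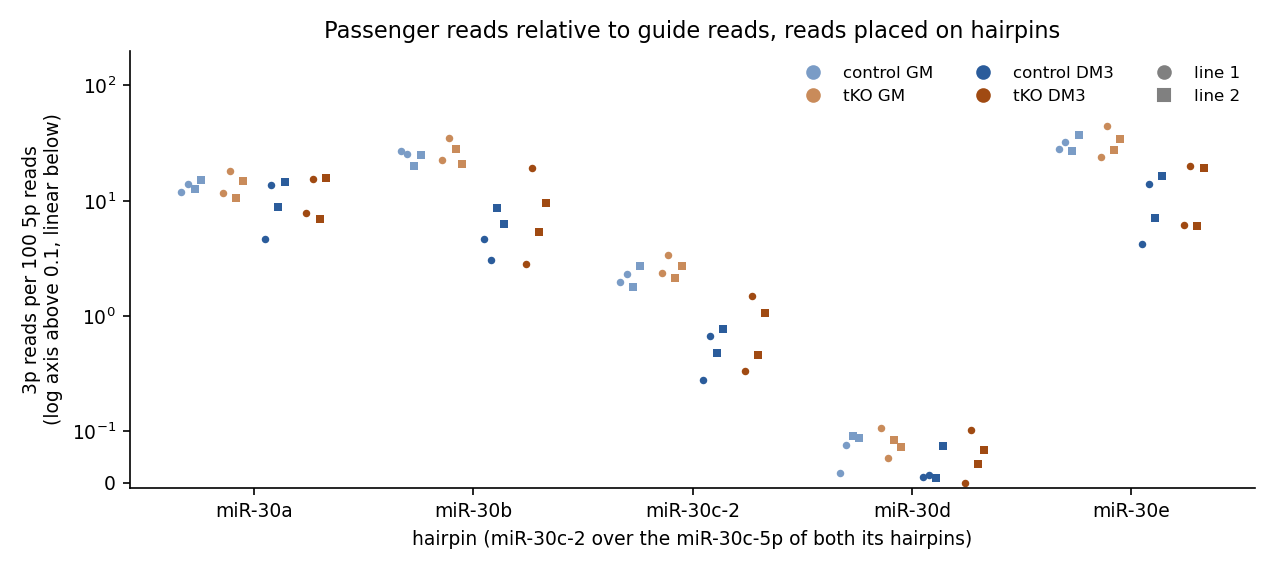
Passenger (3p) reads per 100 guide (5p) reads for each hairpin, in each library by group, with reads placed on hairpins (log axis above 0.1, linear below); circles are line 1, squares line 2. For miR-30b, miR-30c-2 and miR-30e the DM3 libraries lie below the GM libraries of their genotype, and for miR-30a they overlap.

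The 5′ end of miR-30a-3p shifted with differentiation. A strand that starts 1 base further in has a different seed, as the 2 forms of miR-30a-3p show, with the seed in capitals.
miR-30a-3p: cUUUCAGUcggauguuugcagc
miR-30a-3p starting 1 base in: uUUCAGUCggauguuugcagc
Of the miR-30a-3p reads placed on the hairpin, 26.5%, 25.8%, 24.3% and 26.04% started 1 base in among control GM libraries, and 26.3%, 26.5%, 25.9% and 26.1% among tKO GM libraries. In DM3 the shares were 53.3%, 54.3%, 54.5% and 54.2% in control and 45.5%, 47.6%, 51.7% and 50.5% in tKO. The shifted form thus went from a minor form to about equal with the RefSeq form, and no DM3 library overlapped a GM library. The means were 25.7 ± 0.97% and 26.2 ± 0.28% in GM and 54.1 ± 0.54% and 48.8 ± 2.81% in DM3 (control and tKO, SD, n = 4).

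This measure was added after seeing the data and tested over the 30 names with at least 20 reads in every library and at least 1% of reads starting 1 base in. In control the log2 odds of a shifted start rose by 1.77 (SE 0.17; limma adjusted p 8.61e-10), where 26.7% of the 30 names were called higher, and leaving out any library gave 1.73 to 1.79. In tKO they rose by 1.44 (SE 0.17; limma adjusted p 3.73e-08), where 46.7% were called higher, and leaving out any library gave 1.38 to 1.49. The reads behind these shares ranged from 66 in the library that stood apart to 11970.

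In DM3 every tKO library had a smaller shifted share than every control library, also with the library that stood apart set aside, a difference of -5.28 percentage points, given as a description. On the log2 odds scale the difference was -0.29 (SE 0.17; limma adjusted p 0.464), which is not a call. In GM the difference was 0.56 percentage points.

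Split by form, the level of miR-30a-3p reads that start at the RefSeq base was 1080 ± 298 TMM CPM before and 374 ± 166 after differentiation in control, and 1256 ± 284 and 592 ± 303 in tKO (SD, n = 4 each). The level of reads starting 1 base in went from 373 ± 105 to 443 ± 200 in control and from 447 ± 100 to 580 ± 309 in tKO. The lower DM3 mean of miR-30a-3p therefore lay in the form with the RefSeq start. The shift was present in reads without added 3′ bases (control, 21.6% to 24.3% before and 54.3% to 57.7% after) and in reads with them (26.9% to 28.6% and 50.3% to 54.7%).

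The guide of the same hairpin showed a smaller shift. miR-30a-5p reads starting 1 base in made up 1.92%, 1.67%, 1.41% and 1.72% in control GM and 2.36%, 3.03%, 2.57% and 2.73% in control DM3, without overlap. In tKO they went from 1.85%, 2.28%, 1.78% and 2.00% to 2.72%, 3.48%, 2.79% and 2.98%, also without overlap. The log2 odds rose by 0.69 in control (SE 0.12; limma adjusted p 3.69e-05) and 0.62 in tKO (SE 0.12; adjusted p 0.000101). miR-30e-5p, at 2.51% to 5.46% over all libraries, was not called (0.44, SE 0.22, limma adjusted p 0.0926 in control; 0.02, adjusted p 0.942 in tKO).

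The start of the other guides was almost fixed: 99.9% of miR-30b-5p, 99.98% of miR-30c-5p and 99.8% of miR-30d-5p reads began at the expected base. The remaining passengers had under 20 reads in at least 1 library and were not tested. For miR-30e-3p, reads starting 1 base in made up 5.84%, 4.12%, 3.57% and 2.84% in control GM and 12.5%, 8.59%, 2.63% and 7.06% in control DM3. In tKO they made up 2.44%, 3.75%, 2.496% and 1.90% in GM and 14.3%, 5.13%, 2.61% and 5.86% in DM3. The groups overlapped in both genotypes, and 1 control DM3 library lay below every control GM library. For miR-30b-3p only pooled shares over the 4 libraries of a group are given, which the deeper libraries dominate. They were 1.25% of 1599 and 8.87% of 124 in control, and 0.745% of 1074 and 3.79% of 502 in tKO. For miR-30c-2-3p they were 6.18% of 2881 and 9.23% of 260, and 5.89% of 2715 and 8.93% of 1008. Per library with at least 20 reads, miR-30c-2-3p overlapped between GM (5.28% to 14.9%) and DM3 (8.96% to 10.3%) in control.

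**Figure D4:**
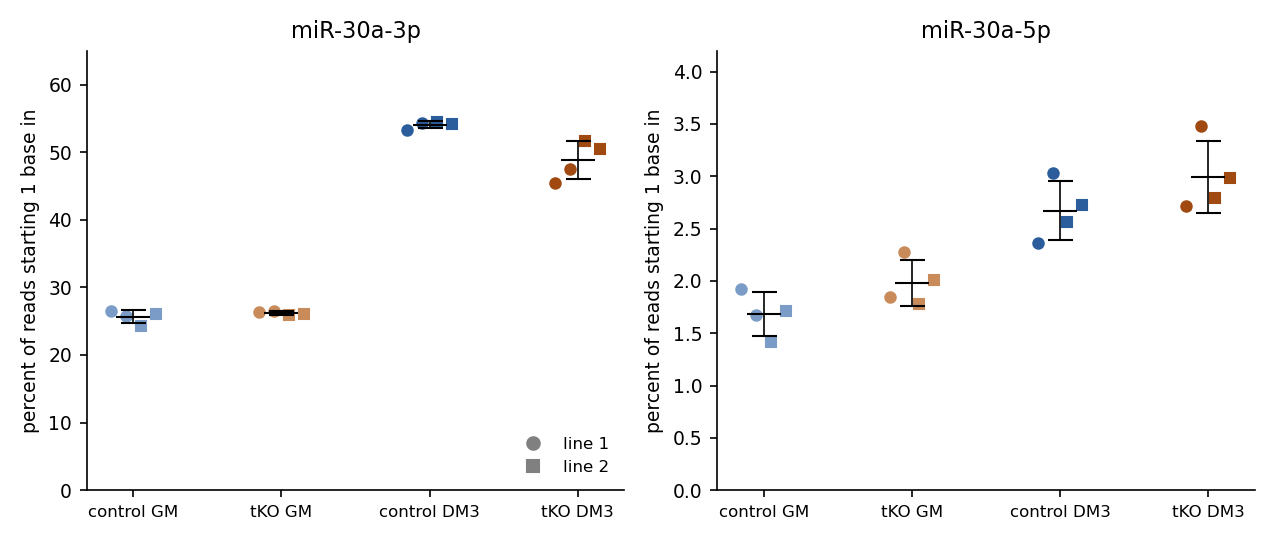
Percent of reads that start 1 base inside the RefSeq start, for miR-30a-3p (left) and miR-30a-5p (right), in each library by group with mean and SD (n = 4), reads placed on hairpins; circles are line 1, squares line 2. For miR-30a-3p the GM libraries lie between 24.3% and 26.5% and the DM3 libraries between 45.5% and 54.5%.

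Mature miRNAs can carry bases added to their 3′ end after processing, and unitas, which made the deposited tables, counts these tails per sequence. As deposited, 25.1% of miR-30d-5p, 26.2% of miR-30e-5p, 31.4% of miR-30c-5p and 32.5% of miR-30b-5p reads carried a tail, and 44.8% of miR-30a-5p reads, a name that lacks most of its exact reads. Placed on the hairpins, miR-30a-5p came to 25.4%, close to miR-30d-5p at 26.7%. Of the tailed reads listed as miR-30a-3p and miR-30e-3p, 16.98% and 21.8% had tail bases that match the next bases of a miR-30 hairpin, so templated and added bases cannot be told apart in them.

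In control, tails were less frequent in DM3 for 5 of 7 members with at least 20 reads in every library, by limma over 183 names. This was a change shared by much of the small RNA population: 45.9% of all names were called and 41.0% called lower, and the median of the 7 members (-0.33 in log2 odds) equalled that of all names (-0.33). The called members were miR-30b-5p (-0.67, SE 0.14, limma adjusted p 0.00185), miR-30c-5p (-0.52, SE 0.09, adjusted p 0.000338), miR-30e-5p (-0.38, SE 0.10, adjusted p 0.00938), miR-30d-5p (-0.33, SE 0.09, adjusted p 0.00704) and miR-30a-3p (-0.28, SE 0.11, adjusted p 0.0441). The miR-30a-3p call was lost when any of 9 libraries was left out, with adjusted p from 0.0517 to 0.12: control GM line 1 replicate 2 and both of line 2, control DM3 line 1 replicate 2 and both of line 2, tKO GM both of line 2, and tKO DM3 line 1 replicate 2. On the hairpins, where 41.8% of 182 names were called lower, miR-30a-5p was also called (-0.38, SE 0.10; limma adjusted p 0.0061), making 6 of the 6 members tested there.

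The tails of miR-30c-5p show the size of the change. On the hairpins, 34.1%, 34.8%, 32.3% and 32.6% of its reads were tailed in control GM and 27.4%, 22.7%, 27.7% and 26.4% in control DM3, without overlap. In tKO the shares were 30.8%, 34.5%, 30.6% and 33.3% in GM and 26.8%, 28.5%, 28.4% and 29.3% in DM3. Tails of A made up the largest part of this difference: reads with a tail of A only made up 11.8 ± 1.12% in control GM and 7.82 ± 0.45% in control DM3 (SD, n = 4), while tails of T only were at 9.09 ± 0.27% and 9.71 ± 1.11%. miR-30b-5p had the same pattern, with A tails at 15.5 ± 1.65% and 7.39 ± 1.16%, and T tails at 2.11 ± 0.61% and 3.22 ± 0.55%. In the other guides, tails of A only, of C only and of G only all had lower means in control DM3. Tails of G only were at 3.08 ± 2.46% and 1.04 ± 0.14% for miR-30a-5p, 2.66 ± 2.14% and 0.94 ± 0.13% for miR-30d-5p and 3.22 ± 2.39% and 1.09 ± 0.09% for miR-30e-5p. Tails of A only were at 7.96% and 6.66%, 8.02% and 7.12%, and 7.76% and 6.60%. Tails of C only were at 8.30% and 7.40%, 6.88% and 5.78%, and 11.1% and 10.1%. Tails of T only were at 6.83% and 6.56%, 8.00% and 8.17%, and 5.50% and 4.95%. The G tails were highest in control GM line 1, where the 5 guides had 3.54% to 6.72%, against 0.723% to 1.57% in control GM line 2. Within line 2, G tails of miR-30a-5p were at 1.09% and 1.017% in GM and 1.11% and 1.11% in DM3, and its A tails at 8.43% and 7.67% and at 7.30% and 6.89%.

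Tails on the miR-30a-3p and miR-30e-3p passengers were mostly of T, at 32.9% to 42.4% and 28.8% to 51.3% of reads, against 2.92% to 6.90% and 0.0% to 6.54% for A. In the guides, tails of T only held 0.0% to 11.4% of reads. In tKO, limma called none of the 7 members in DM3 against GM, with 14.8% of all names called and 11.5% lower, and 2 of 7 members had an unadjusted p under 0.05. The lowest adjusted p was that of miR-30c-5p (-0.26, SE 0.09, limma adjusted p 0.0536), and on the hairpins, with 12.1% of names called lower, it was -0.28 (adjusted p 0.0487). The listed value was called without tKO GM line 1 replicate 1 (0.0408), tKO GM line 2 replicate 1 (0.0354) or control DM3 line 1 replicate 2 (0.0151). For miR-30b-5p (-0.41, adjusted p 0.0619), leaving out the first or the last of these gave a call (0.0499 and 0.0439). Without the library that stood apart neither was called (adjusted p 0.112 and 0.116). Between genotypes no member was called by limma in GM (0.0% of all names, with 1 of 7 members and 12 of 183 names at an unadjusted p under 0.05) or in DM3 (0.0%, with 0 of 7 and 19 of 183).

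**Figure D5:**
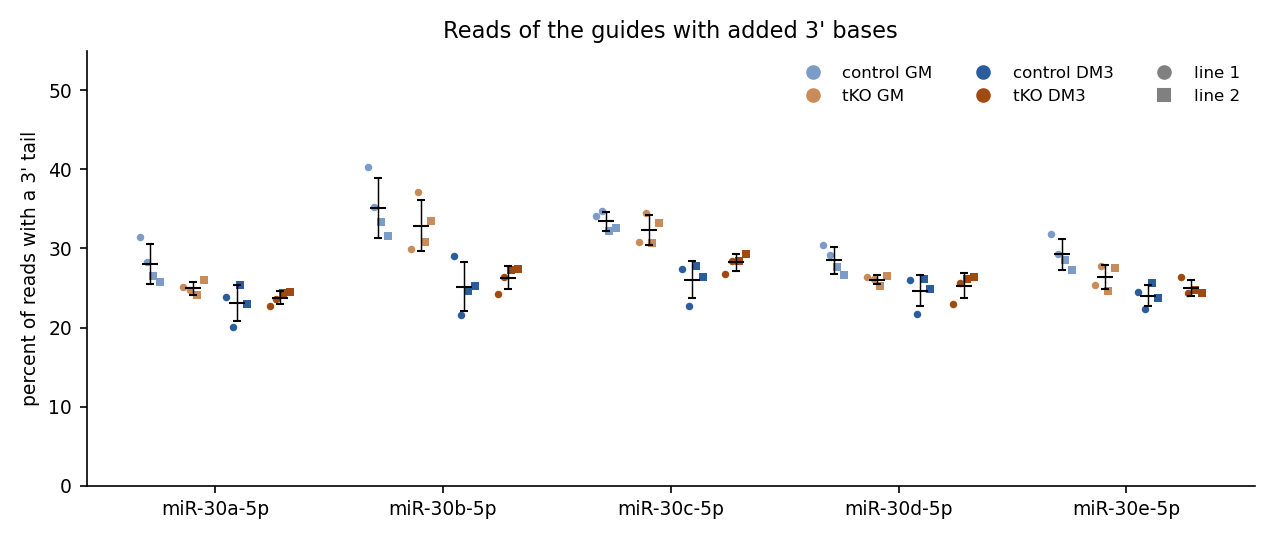
Percent of reads of each guide that carry added 3′ bases, in each library by group with mean and SD (n = 4), reads placed on hairpins; circles are line 1, squares line 2. In control, all 5 guides show lower shares in DM3 than in GM without overlap. Limma called 41.8% of 182 names lower in this comparison.

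Tail shares differed with the length of the templated part. The 24-nt form of miR-30a-5p, 50.8% of its reads, was tailed in 8.00% of cases and the 22-nt form, which is the RefSeq length, in 53.5%. For miR-30c-5p, 14.1% of 24-nt reads and 95.2% of 22-nt reads were tailed. miR-30e-5p was mostly 24 nt long (69.8% of reads, 7.95% of them tailed), with 79.1% tailed at 23 nt and 51.3% at 22 nt, whereas miR-30b-5p was mostly 22 nt (70.0%, 13.8% tailed) with 74.1% tailed among its 21-nt reads. In each of these guides the most common form was the least tailed of the 3 most common ones. A read whose last bases mismatched the hairpin was placed as a shorter form with a tail. Added bases and mismatched last bases therefore cannot be told apart in these shares.

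Levels of members were compared across libraries by Pearson correlation. On the log scale, over the 16 libraries, correlations between pairs of passengers on the hairpins ran from 0.833 to 0.957 (10 pairs), and between pairs of guides from -0.172 to 0.858 (10 pairs). With names as listed they ran from 0.588 to 0.951 for passengers and from 0.018 to 0.805 for guides. All points share library depth, scaling and the differentiation contrast, and the values are descriptions. Outside the family, the names most like the summed guides over the 16 libraries were miR-425-5p (Pearson r 0.888), let-7c-5p (0.888), let-7d-5p (0.887), miR-125a-5p (0.877) and miR-191-5p (0.871), of 233 names compared.

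Muscle miRNAs changed in both directions in the same libraries. Of 24 miRNA names known in muscle differentiation, 23 were tested, and in control DM3 against GM edgeR called 6 higher and 5 lower (27.6% of all names were called), with a median log2 fold change of 0.07. The increases included miR-133a-3p (6.99, SE 0.73; edgeR adjusted p 8.74e-06) and miR-133b-3p (6.66, SE 0.73; adjusted p 8.74e-06), both encoded beside the deleted genes, and the deleted miR-206-3p (4.58, SE 0.78; adjusted p 0.000257). In tKO, 5 were called higher and 3 lower, against 19.7% of all names. Between genotypes 1 of the 23 was called lower in GM and 2 in DM3, none higher, against 1.12% and 0.867% of all names. The list includes the deleted miR-206-3p, whose loss is fixed by the knockout. These counts are therefore not read as a change in the other muscle miRNAs.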

How the data were processed

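Small RNA libraries were made from 0.5 µg total RNA and gel-selected for inserts of 15 to 50 nt, per the labels' protocols. The submitters' processing notes name cutadapt 1.15, STAR 2.5.4 and the mm10 genome. The authors deposited 1 unitas table per library with expected counts, reads per sequence and miRNA name split by added 3′ bases (per the file headers), in which 0.46% to 0.863% of entries were fractions. Counts were summed per name, copies merged (2510 to 2274 names) and rounded. edgeR 4.0.16 (R 4.3.3; filterByExpr, TMM, robust quasi-likelihood fit of all 16 libraries) tested levels, and limma 3.58.1 tested log2 ratios of arms, tails and starts with a pseudocount of 0.5, all with Benjamini-Hochberg adjustment at 0.05 over all names. The scripts were tested on simulated data. In an alternative added after seeing the data, reads were placed on the GENCODE miR-30 hairpins by exact match of at least 15 nt with up to 3 added bases, and reads fitting 2 members were left out. All members were named whatever their values, and names like them were ranked by Pearson r. The members and lists were chosen with earlier results of these data known. PCR reads without molecular identifiers are not independent molecules, so limits from counts cover counting error only.

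Same line in GM and DM3 deviated together on average (mean correlation of deviations 0.147, lowest -0.228, against -0.138 for the other line), and lines are the same population or clone by label. Library depth was 112792 to 6543570 reads, at which 3 reads equal 26.6 to 0.458 CPM. The unitas version is not given in the sources used here.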

Additional observations from a re-analysis of the deposited data

Results flagged for a closer look

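Of 48 groups of 4 values examined (the levels of the members, the ratio of miR-30d-5p to miR-30a-5p and the shifted starts of miR-30a-3p), 1 held a library far from the others: miR-30c-2-3p in tKO GM stood at 318 TMM CPM in line 2 replicate 2 and at 238 to 247 in the other 3 libraries. The gap was 0.883 of the range, above Dixon's 95% critical value for 4 libraries. Chance gives such a gap in about 1 in 20 groups. Leaving this library out ended the edgeR call of miR-30c-2-3p in tKO DM3 against GM (log2 fold change -1.46, adjusted p 0.0779).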

How the results depend on the processing

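Counts of called members of the miR-30 family moved in DM3 against GM and not between genotypes. In control, 2 members were called as listed, 4 with line and replicate blocks, 5 on the hairpins with the line block, 4 on the hairpins without the library that stood apart, and 2 to 5 when any library was left out. In tKO, 1 was called as listed, 2 with the DESeq2 Wald test, the replicate block, the line block, replicate 1 alone, or either block on the hairpins, 0 with only the groups compared, replicate 2 alone or sums per line, and 0 to 2 when any library was left out. Tail shares called in tKO were 0 as listed, 2 with 50 reads in every library, 1 on the hairpins and 0 to 2 when any library was left out.

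The following small, uncalled values changed sign, and the cause was not tested. tKO against control in DM3: miR-30d-5p 0.002 with replicate 2 alone, miR-30e-3p -0.016 with replicate 1 alone. Control DM3 against GM: miR-30a-5p 0.007 with total counts (0.005 on the hairpins) and 0.021 with 18 to 25 nt; miR-30d-5p 0.12 with total counts (0.17 on the hairpins), 0.026 without mismatches and 0.13 with 18 to 25 nt; miR-30e-5p -0.029 with replicate 2 alone. tKO DM3 against GM: miR-30c-5p 0.26 with total counts (on the hairpins too), 0.07 with at least 10 CPM in 4 libraries, 0.045 with only the groups compared, 0.16 with replicate 2 alone, 0.059 with sums per line, 0.18 without mismatches, 0.13 with 18 to 25 nt, 0.048 with the copies of a name not merged and 0.14 on the hairpins without the library that stood apart; miR-30d-3p 0.175 with replicate 2 alone and 0.002 with sums per line; the miR-30d arm ratio 0.44 with a pseudocount of 5. Tail odds: miR-30a-5p 0.185 in control and 0.59 in tKO without mismatches, miR-30a-3p 0.005 in tKO on the hairpins.

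Leaving out 1 library gave -0.40 to 0.07 for miR-30d-5p, -0.13 to 0.40 for miR-30e-5p, -0.31 to 2.48 for miR-30d-3p and -0.051 to 0.51 for miR-30e-3p in tKO against control in DM3. In tKO DM3 against GM it gave -0.19 to 0.16 for miR-30c-5p, -1.48 to 0.16 for miR-30d-3p and -0.53 to 0.35 for the miR-30d arm ratio. For tail odds it gave -0.12 to 0.054 (miR-30a-5p) and -0.026 to 0.547 (miR-30e-3p) in control, and -0.166 to 0.227 (miR-30a-5p) and -0.142 to 0.01 (miR-30a-3p) in tKO.

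Over all names, replicate numbers did not meet the condition for pairing: libraries with the same number had a mean correlation of deviations of 0.101 (lowest -0.46), against -0.095 for different numbers, so the replicate block is an alternative only, although some arm ratios moved with the number. Line and replicate blocks ended the tail call of miR-30a-3p in control (limma adjusted p 0.0561) and, beside the added calls given above, changed no other call of a listed level, arm ratio or tail share in DM3 against GM. A filter on sequences listed under 1 name gave no value, because every sequence is listed once per library.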
